A study of Rattus norvegicus with 6 samples.

Results

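The genes described here encode the constitutive proteasome of the rat kidney. The rule used symbols and mean signal: it took each gene whose platform symbol opens with Psma, Psmb, Psmc, Psmd, Psme, Psmf or Psmg and a number, apart from the immune genes Psmb8, Psmb9, Psmb10, Psme1 and Psme2, and for each gene the probe set with the highest mean signal over the 6 arrays. This gave 41 of the 14217 genes with a single platform symbol. They comprised 13 genes of the core particle, 20 of the regulatory particle and 6 for an activator, an inhibitor and chaperones of core assembly. The 20 include 3 assembly chaperones of the regulatory particle, Psmd5, Psmd9 and Psmd10. The remaining 2, Psmc3ip and Psme3ip1, carry such symbols only because their products bind a proteasome protein, and they are given apart. The probe sets of Psmb6 and Psme3 are shared with other gene symbols on this platform, and those genes are therefore not among the 41.

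Kidney RNA of 3 Dahl salt-sensitive (S, SS/Jr) rats was compared with that of 3 rats of the congenic strain S.LEW(D1MCO4x1x3Bx1), which carries a Lewis (LEW) segment of chromosome 1 on the S background. All were adult males, with 1 Affymetrix array per rat and no treatment named in the labels. The S strain is inbred and prone to hypertension, and both groups share its genome outside the donor segment. Whole kidney RNA mixes many cell types, so fewer cells of a type and less RNA per cell cannot be told apart. Values are scaled signals on a linear scale with their SD over 3 rats. A signal depends on the probes as well as on the transcript, so levels of different genes are not ranked against each other.

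The proteasome is the main protease of the cytosol and nucleus, and it degrades proteins marked with chains of ubiquitin. Its core particle is a barrel of stacked rings, in which alpha subunits form the gate and beta subunits carry the proteolytic sites. The regulatory particle caps the barrel: its non-ATPase subunits bind the ubiquitin chain and remove it, and its ring of ATPases unfolds the protein and threads it into the core. Because the particle has a fixed composition, its genes are commonly regulated as a group, with the transcription factor encoded by Nfe2l1 raising many of them when proteasome capacity falls short.

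Mean signals of the 41 probe sets ran from 362 for Psmc3ip to 6933 for Psma6, against a median of 171.1 over all probe sets. All 41 passed the filter on low signals, which kept 15521 probe sets with mean log2 signal above the median. The arrays had been scaled to 1 common level before deposit, and their median signals lay between 161.7 and 177.8. Kidney identity was clear from 7 measured markers of 8, with Umod, Lrp2 and Slc34a1 above the 99th percentile. Their summed signal was 91993 to 106971 in S and 103625 to 115187 in congenic rats. The 2 measured blood genes, Hbb and Alas2, summed to 15467 to 22013 in S and 9923 to 16814 in congenic rats. Immune markers (Ptprc, Cd68, Cd3e and Cd74) summed to 10001 to 11865 and 10573 to 12031, a sum made up mostly of Cd74. Among them the macrophage gene Cd68 read 180 ± 47.0 in S and 274 ± 33.2 in congenic rats (log2 difference 0.63, limma adjusted p = 0.357), each congenic rat above each S rat, and the leukocyte gene Ptprc had -0.35. Liver markers summed to at most 138, skeletal muscle markers to at most 191 and adrenal markers to at most 146 on any array. Adipocyte markers summed to 583 to 1504 in S and 656 to 1756 in congenic rats. The part of these cell types in the differences below was not tested.

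No proteasome gene differed between the strains at adjusted p 0.05 in limma, and neither did any of the 15521 probe sets (0.0%). The smallest adjusted p among the 41 genes was 0.294. At unadjusted p below 0.05 there were 5 of 41 (4 higher and 1 lower in congenic kidneys), beside 10.3% of all tested probe sets (4.72% higher and 5.61% lower), a share near the background. The 3 congenic signals lay all above the 3 S signals for 5 genes (7.98% of all probe sets) and all below for 1 gene (7.99%). The estimates were narrow. For the 1 probe set used per gene, the 95% interval of the log2 difference had a median half-width of 0.21. It lay within a 1.5-fold change either way for 40 of 41 genes, the exception being Psmc3ip. For 30 genes it lay within a 1.3-fold change. These counts do not cover further probe sets of the same genes. Second probe sets of Psme4 (0.49, SE 0.13) and Psmc6 (-0.34, SE 0.14) had larger estimates, so such limits do not hold for every probe set.

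**Figure D1:**
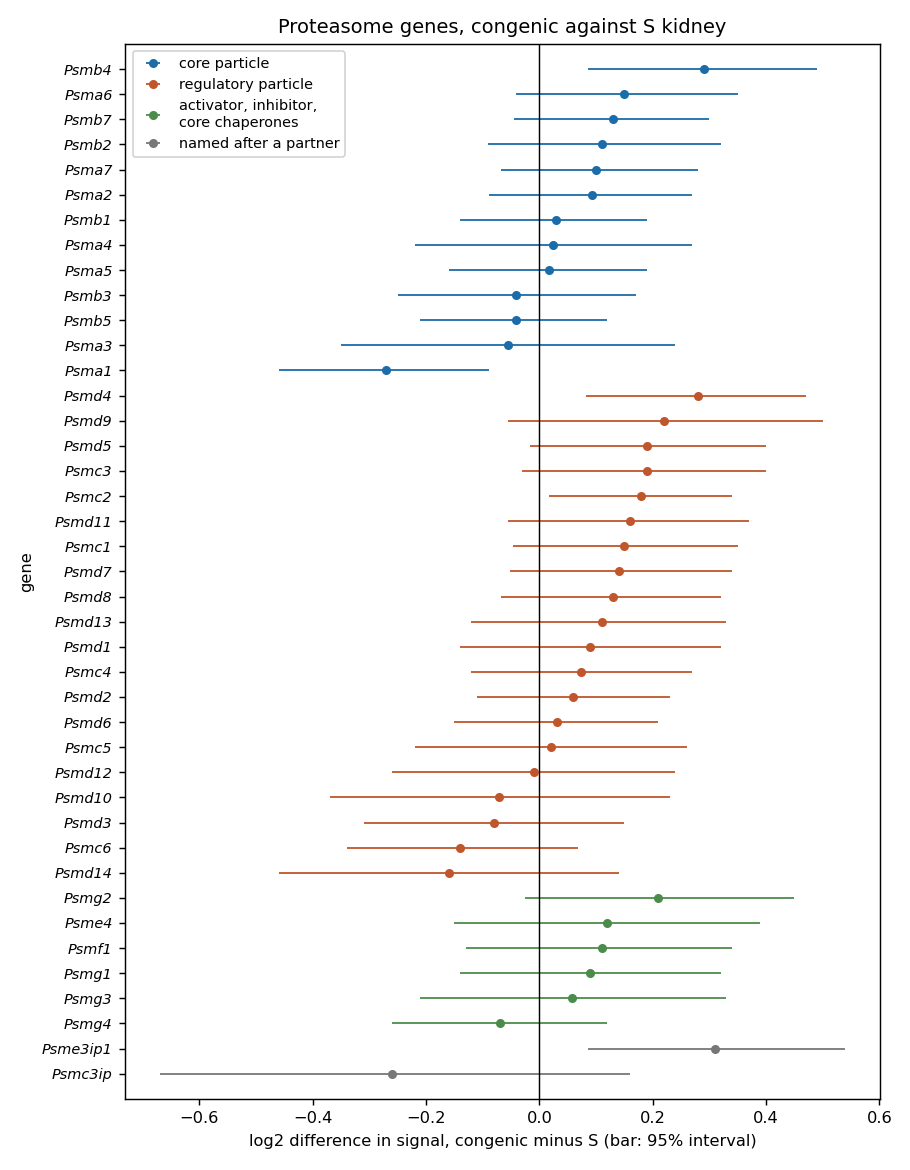
Log2 difference in signal between congenic and S kidneys (x axis) for the 41 genes (y axis), coloured by particle, with 95% intervals from limma. Of the 41 intervals, 5 do not hold 0. That share is near the background, 10.3% of all tested probe sets at unadjusted limma p below 0.05. The regulatory particle genes lie mostly to the right, 15 of 20 above 0, beside 48.2% of all tested probe sets. Among the brightest probe sets 55.2% were above 0.

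The small differences leaned one way. Of the 41 genes, 30 had a positive log2 difference (congenic minus S) and 11 a negative one, with a median of 0.09, beside 48.2% positive and a median of -0.0087 over all tested probe sets. The genes are bright, and 40 of the 41 lie above the 75th percentile of signal, where 55.2% of all probe sets were positive with a median of 0.018. Of those 40 genes 30 were positive, with a median of 0.091. In the core particle 9 of 13 were positive with a median of 0.029. Of the 20 regulatory particle genes that the rule covers, 15 were positive with a median of 0.098, a fold of 1.07. Without the 3 assembly chaperones among them, 13 of 17 were positive with a median of 0.089. With arrays centred on their medians, 62.6% of all tested probe sets became positive, with a median of 0.062 over all of them. The medians were then 0.099 for the core and 0.17 for the regulatory particle, so part of their rise was shared by the whole table. After cyclic loess they were 0.0075 and 0.093, beside 0.0041 over all tested probe sets, with 7 of 13 core and 14 of 20 regulatory particle genes positive. The core median ranged from 0.01 without S replicate 1 to 0.11 without S replicate 2, was 0.10 without congenic replicate 1, and was 0.092 when all probe sets of a gene were averaged. The regulatory particle median stayed between 0.066 and 0.13 with any 1 array left out.

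The alpha subunits build the outer rings of the core, and their tails close its gate. Of 7 genes, 5 had positive and 2 negative differences, from -0.27 for Psma1 to 0.15 for Psma6. Psma1 read 3107, 3560 and 3102 in the S rats and 2854, 2604 and 2613 in the congenic rats. Each congenic signal was below each S signal. The means were 3256 ± 263 and 2690 ± 142, a log2 difference of -0.27 with a standard error of 0.087 (limma p = 0.00678, adjusted p = 0.294; exact permutation p = 0.1, the smallest that 3 against 3 rats allow). Psma1 was the 1 gene of the 41 lower in every congenic rat.

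Psma6 read 6739, 6866 and 6052 in S and 6372, 7731 and 7836 in congenic rats. Congenic replicates 2 and 3 were above every S rat, whereas replicate 1 lay among them (log2 difference 0.15, SE 0.092, limma adjusted p = 0.583). The difference was 0.098 without S replicate 3 and 0.25 without congenic replicate 1. Psma7 read 5054, 5355 and 5011 in S and 5256, 5316 and 6028 in congenic rats, so that congenic replicate 3 alone stood above the S range; without it the log2 difference of 0.10 was 0.041. The other alpha subunits differed little. Their log2 differences were 0.092 for Psma2, 0.024 for Psma4, 0.017 for Psma5 and -0.056 for Psma3, and all had overlapping strains. Psma5 had the lowest spread within strains of all 41 genes, with an SD of 0.05 on the log2 scale, and its signals ran from 2564 to 2771.

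Beta subunits form the inner rings. Psmb5 encodes the chymotrypsin-like site, Psmb7 the trypsin-like site, and Psmb1 to Psmb4 encode subunits without proteolytic activity. Psmb4 read 5156, 3995 and 4951 in S and 5556, 5946 and 5629 in congenic rats. Each congenic rat was above each S rat, and S replicate 2 was the lowest. The means were 4701 ± 620 and 5710 ± 208, a log2 difference of 0.29 with a standard error of 0.095 (limma adjusted p = 0.307). Without S replicate 2 this difference was 0.18.

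For both catalytic subunits measured the strains overlapped. Psmb5 read 5578, 4960 and 5203 in S and 5150, 5236 and 4887 in congenic rats, with no order between the strains. Its log2 difference was -0.042 with a 95% interval of -0.21 to 0.12 (limma adjusted p = 0.884). Psmb7 read 3305, 3242 and 3109 in S and 3658, 3629 and 3277 in congenic rats, with congenic replicates 1 and 2 above every S rat. Its log2 difference was 0.13 with an interval of -0.045 to 0.30 (limma adjusted p = 0.605). Psmb2 read 3253, 3678 and 2899 in S and 3281, 3698 and 3617 in congenic rats, with overlap. Its log2 difference of 0.11 was 0.028 without S replicate 3, 0.20 without S replicate 2 and 0.17 without congenic replicate 1. The remaining beta subunits were Psmb1 at 0.029 and Psmb3 at -0.041.

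**Figure D2:**
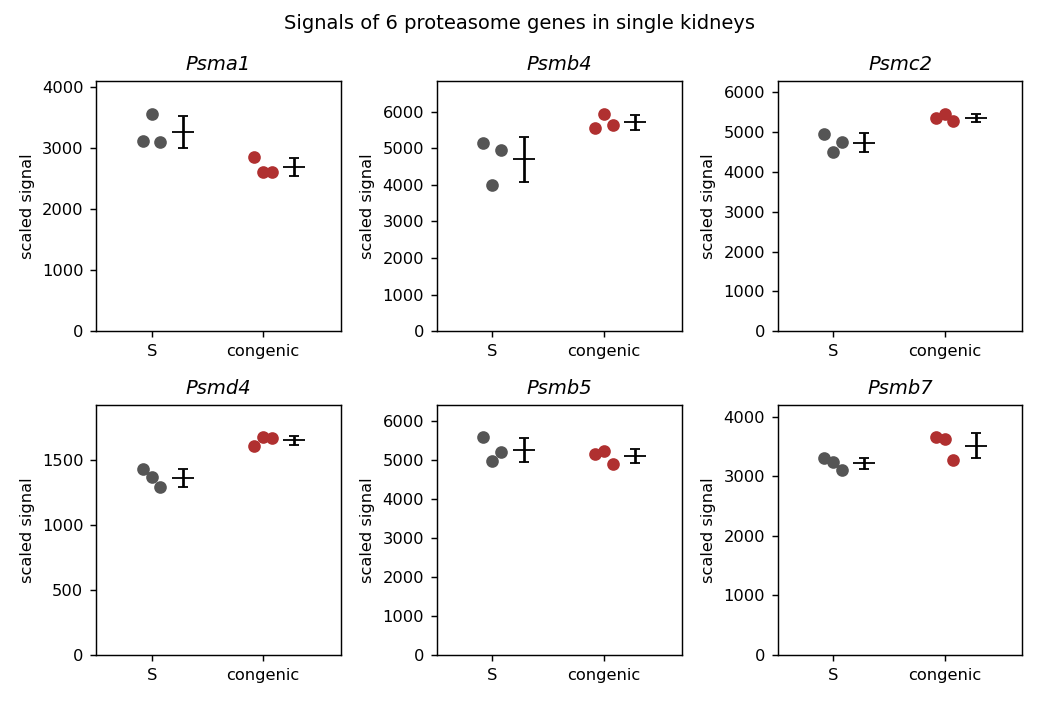
Scaled signal (y axis, from 0) of 6 proteasome genes in single kidneys of S (grey) and congenic (red) rats, with the mean and SD of 3 rats as a bar beside the points. The strains separate for Psma1, Psmb4, Psmc2 and Psmd4 and overlap for Psmb5 and Psmb7.

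Under inflammatory signals Psmb8 and Psmb10 replace Psmb5 and Psmb7 in the immunoproteasome. Psmb8 read 339 ± 24.6 in S and 354 ± 27.0 in congenic kidneys, Psmb10 331 ± 21.0 and 379 ± 36.6, and Psmb9 397 ± 53.6 and 493 ± 13.5. All 5 immune genes, including the activator genes Psme1 (0.058) and Psme2 (0.17), had positive log2 differences, beside 48.2% of all tested probe sets. Psmb9 was the 1 with unadjusted limma p below 0.05 (adjusted p = 0.482), beside 10.3% of all tested probe sets. With 5 genes, neither count can be told from the background. The within-array log2 ratio of Psmb8 to Psmb5 differed between strains by 0.11 (exact permutation p = 0.5), and that of Psmb10 to Psmb7 by 0.066 (exact permutation p = 0.8). Adjusted over these 2 pairs, both 2-sided exact permutation tests gave p = 0.8. The first ratio was turned by leaving out S replicate 1 (-0.0011) and the second by leaving out congenic replicate 3 (-0.054).

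The ATPases Psmc1 to Psmc6 form the unfolding ring, and 5 of 6 had positive differences. Psmc2 read 4961, 4492 and 4756 in S and 5344, 5464 and 5273 in congenic rats. Each congenic signal exceeded each S signal. The means were 4736 ± 235 and 5360 ± 96.2, a log2 difference of 0.18 with a standard error of 0.076 (limma adjusted p = 0.439).

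Psmc3 read 2445, 2194 and 2000 in S and 2602, 2720 and 2234 in congenic rats (log2 difference 0.19, limma adjusted p = 0.545), with congenic replicate 3 inside the S range, and the difference was 0.12 without S replicate 3. Psmc1 read 1957, 1826 and 1633 in S and 1988, 2088 and 1937 in congenic rats, where congenic replicate 3 fell just below S replicate 1. Its log2 difference of 0.15 was 0.083 without S replicate 3. Psmc4 and Psmc5 had 0.074 and 0.02. Psmc6 was the ATPase gene with a negative difference, -0.14. A second probe set of Psmc6 read 949.6, 1268 and 938.4 in S and 921.1, 876.1 and 696.8 in congenic rats, lower in every congenic animal (log2 difference -0.34, limma adjusted p = 0.436), and the remaining one had -0.074. The 3 probe sets thus had the same sign.

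Among the non-ATPase subunits that the rule covers, the largest difference was that of Psmd4, a receptor for ubiquitin chains. Adrm1, a regulatory particle subunit outside the rule, had a log2 difference of -0.3 with overlapping strains. Psmd4 read 1433, 1368 and 1292 in S and 1612, 1675 and 1669 in congenic rats. The strains did not overlap, with the lowest congenic signal above the highest S signal (exact permutation p = 0.1). The means were 1364 ± 70.2 and 1652 ± 34.8, a log2 difference of 0.28 with a standard error of 0.091 (limma adjusted p = 0.305). With any 1 array left out the difference was 0.24 to 0.31.

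Other subunits that handle ubiquitin had overlapping strains. Psmd2, a large scaffold subunit that binds ubiquitin-like shuttle proteins, read 3206, 3248 and 3219 in S and 3449, 3546 and 3104 in congenic rats. Congenic replicates 1 and 2 were above the S rats and replicate 3 below them (log2 difference 0.06, interval -0.11 to 0.23, limma adjusted p = 0.83). That difference was 0.021 without congenic replicate 2 and 0.12 without congenic replicate 3. Psmd14, the metalloprotease that cuts the ubiquitin chain from its substrate, read 1584, 1812 and 1229 in S and 1132, 1489 and 1494 in congenic rats, a log2 difference of -0.16 (limma adjusted p = 0.72). Leaving out S replicate 3 gave -0.32, whereas leaving out S replicate 2 gave -0.036 and leaving out congenic replicate 1 gave -0.029. Psmd14 was among the most variable genes, with a within-strain SD of 0.26 on the log2 scale against a median of 0.12 over the 41 genes and 0.16 over all tested probe sets. A second probe set of Psmd14 went the other way, at 967.2, 1013 and 990.2 in S and 1074, 1091 and 1177 in congenic rats, higher in each congenic rat (log2 difference 0.17, limma adjusted p = 0.579). The direction for Psmd14 therefore depended on the probe set. Psmd7, its catalytically inactive partner, had 0.14, and a second probe set of Psmd7 had 0.25.

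Of the remaining non-ATPase genes, Psmd11 had 0.16, Psmd8 0.13, Psmd13 0.11, Psmd1 0.089 and Psmd6 0.032, while Psmd12 had -0.0091 and Psmd3 -0.08. These encode structural subunits of the base and lid, and Psmd11 also helps to join the regulatory particle to the core. The strains overlapped for all 7. Of the 3 chaperones that assemble the ATPase ring, Psmd9 read 614.6, 548.3 and 564.3 in S and 737.1, 588.8 and 695.6 in congenic rats, a log2 difference of 0.22 (limma adjusted p = 0.579), or 0.12 with its probe sets averaged. Psmd5 read 1643, 1425 and 1425 in S and 1688, 1614 and 1824 in congenic rats, a log2 difference of 0.19 (limma adjusted p = 0.512). Congenic replicate 2 lay within the S range for both. The last of them, Psmd10, known as the oncoprotein gankyrin, had -0.072.

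Outside the 2 particles, the genes encode an alternative activator, an inhibitor and chaperones of core assembly. Psmg2, which pairs with Psmg1 to build the alpha ring, read 993.1, 996.0 and 1012 in S and 1075, 1075 and 1350 in congenic rats, each congenic rat above each S rat. The log2 difference of 0.21 had a standard error of 0.11 (limma adjusted p = 0.527), and without congenic replicate 3 it was 0.10. Psmg1 read 1206, 1367 and 1078 in S and 1359, 1227 and 1286 in congenic rats, with overlap. Its log2 difference of 0.09 fell to 0.0062 when S replicate 3 was left out and to 0.052 when congenic replicate 1 was, and was 0.18 when S replicate 2 was. Psmg3, another core chaperone, read 572.7, 569.9 and 552.7 in S and 547.6, 640.4 and 580.9 in congenic rats, and its log2 difference of 0.058 was -0.0026 without congenic replicate 2. Psmg4, its partner, read 1592, 1743 and 1685 in S and 1628, 1570 and 1582 in congenic rats, and its difference of -0.07 was 0.00038 with arrays centred on the median. The strains overlapped for both. Psmf1, the inhibitor gene, read 883.3, 960.8 and 793.3 in S and 968.2, 941.4 and 920.6 in congenic rats. Its log2 difference of 0.11 was 0.034 without S replicate 3 and 0.17 without S replicate 2.

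Psme4 encodes a nuclear activator that caps the core in place of the regulatory particle. Its brightest probe set read 1171, 1470 and 1603 in S and 1326, 1714 and 1573 in congenic rats, with overlap and a log2 difference of 0.12. Without S replicate 1 that difference was -0.0057. A second probe set of Psme4, singled out after its values were seen, read 872.6, 1096 and 1108 in S and 1453, 1707 and 1196 in congenic rats. Each congenic signal of that second probe set was above each S signal, a log2 difference of 0.49 with a standard error of 0.13 (limma adjusted p = 0.235). The dimmest probe set of Psme4 had 0.15, so the 3 agreed in sign and differed in size. The 2 genes named after a binding partner went opposite ways. Psme3ip1 read 1159, 986.3 and 1005 in S and 1203, 1332 and 1369 in congenic rats, each congenic rat above each S rat (log2 difference 0.31, limma adjusted p = 0.328). Psmc3ip, which works in meiotic recombination, had -0.26 with an interval of -0.67 to 0.16.

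**Figure D3:**
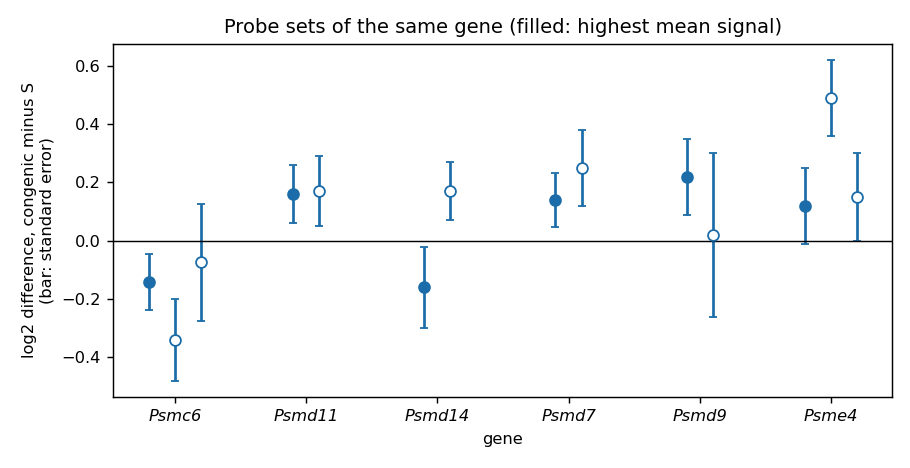
Log2 difference between congenic and S kidneys (y axis, bars are standard errors) for the probe sets of genes with more than 1 tested probe set (x axis); the filled point is the probe set with the highest mean signal. Of 8 further tested probe sets, 7 had the sign of the filled one, and the exception is Psmd14.

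Single rats differed within a strain. S replicate 3 was the lowest of the 6 arrays for 17 of 41 genes, including 8 of 13 core genes and 7 of 20 regulatory particle genes, whereas over all tested probe sets it was the lowest for 17.2%. Congenic replicate 2 was the highest for 14 of 41 genes, beside 14.9% of all tested probe sets. The mean log2 deviation of the regulatory particle genes from their 6-array means was -0.013, -0.0038 and -0.10 in S replicates 1 to 3 and 0.013, 0.061 and 0.043 in congenic replicates 1 to 3. These class means did not overlap between strains, by less than the gap between S replicate 3 and the other S rats. After quantile normalisation the class means did overlap, with S replicate 1 at 0.0026 and congenic replicate 1 at 0.00061. They did not with median centring (highest S -0.00036, lowest congenic 0.02) or, by a small gap, after cyclic loess (-0.00084 and 0.0012). For the core genes the deviations were -0.019, 0.053 and -0.096 in S and -0.026, 0.047 and 0.042 in congenic rats, with overlap. The means of the beta subunits alone did not overlap (highest S -0.0056, lowest congenic 0.02), nor after quantile normalisation or median centring. After cyclic loess they did (0.0096 and 0.0036). Within the regulatory particle, the ATPase means overlapped, with S replicate 2 at 0.025 and congenic replicate 3 at 0.021. S replicate 2 stood high for the alpha subunits (0.11) and not for the beta subunits (-0.013), in which Psmb4 was low in that rat.

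RNA integrity was read from control genes with probe sets at both transcript ends. The ratio of 3' over 5' signal for beta-actin was highest in S replicate 3 at 2.30, beside 1.99 and 2.09 in the other S rats and 1.94 to 2.06 in the congenic rats. The ratios of GAPDH were 1.11 to 1.18 in S and 1.12 to 1.20 in congenic rats, and S replicate 3 had the lowest. Those of hexokinase were 1.83, 2.35 and 2.74 in S replicates 1 to 3 and 2.09, 2.33 and 2.78 in congenic replicates 1 to 3, so the third rat of either strain was highest. The part of RNA integrity in the low proteasome signals of that kidney was not tested. Without S replicate 3, the regulatory particle median was 0.066 with 13 of 20 positive, and the core median was 0.03 with 9 of 13 positive.

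**Figure D4:**
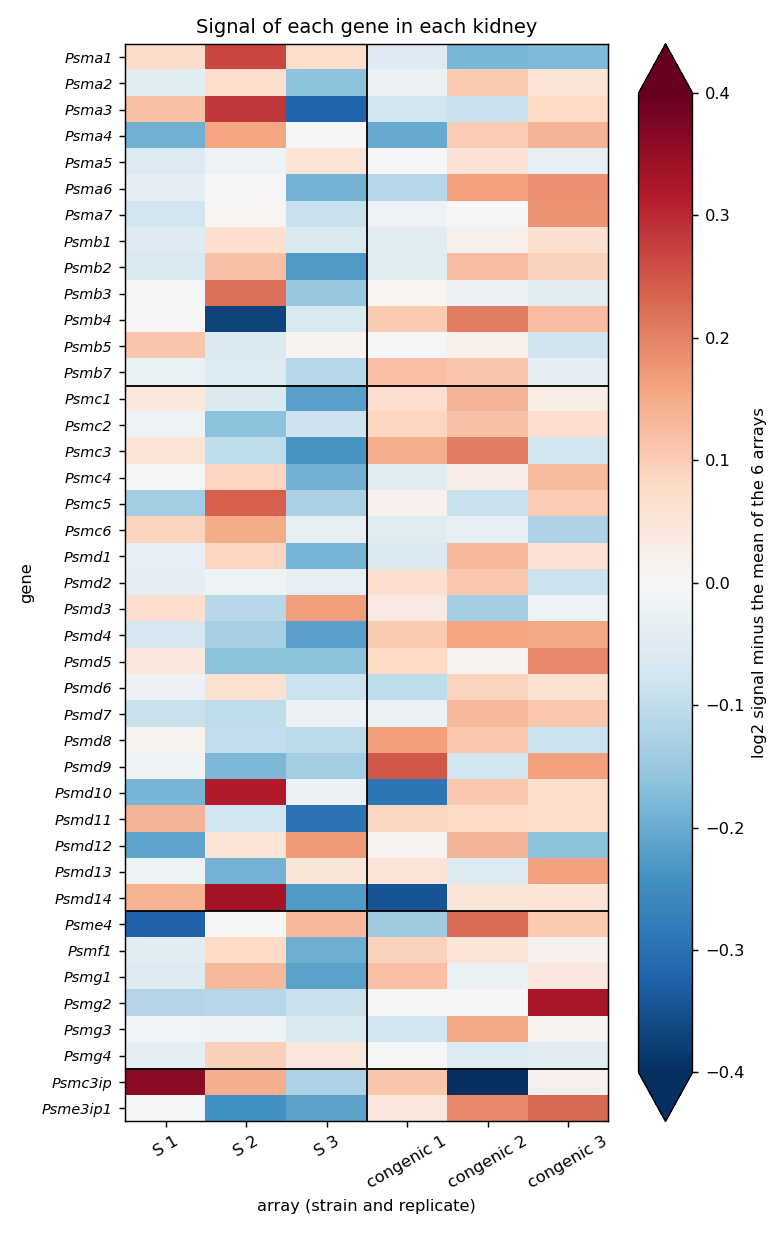
Log2 signal of each of the 41 genes (rows, with lines between core particle, regulatory particle, the activator, inhibitor and chaperone genes, and those named after a partner) in each of the 6 kidneys (columns), as the deviation from the gene's mean, with colours cut at 0.4 either way. S replicate 3 is the lowest kidney for 17 of the 41 genes.

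**Figure D5:**
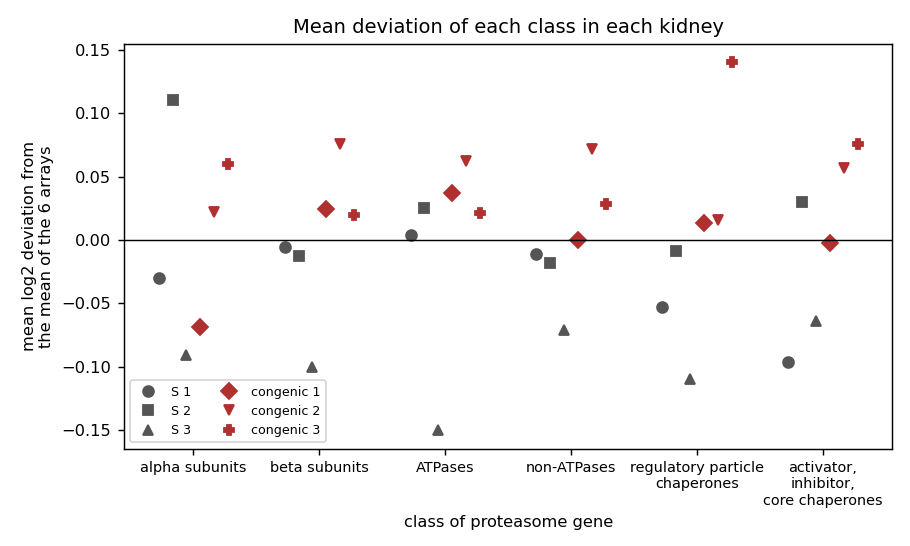
Mean log2 deviation (y axis) of each class of proteasome gene (x axis) in each kidney, S in grey and congenic in red, with 1 symbol per rat. The strains overlap for the alpha subunits, for the ATPases and for the activator, inhibitor and core chaperone genes. They do not for the beta subunits, the non-ATPases and the regulatory particle chaperones. Among the alpha subunits S replicate 2 is highest at 0.11, and among the ATPases S replicate 3 lies lowest at -0.15.

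The start sites of the genes with the smallest p in the core particle (Psma1 and Psmb4) and of Psmd4 are shown by the 250 bases upstream of each, from RefSeq on assembly GRCr8. Capitals mark CCAAT on either strand, the box bound by the NF-Y factor. The regions are chr1:177887858-177888107 for Psma1, chr2:185134562-185134811 for Psmb4 and chr2:185297202-185297451 for Psmd4, all on the minus strand and written 5′ to 3′ in the direction of the gene.
Psma1: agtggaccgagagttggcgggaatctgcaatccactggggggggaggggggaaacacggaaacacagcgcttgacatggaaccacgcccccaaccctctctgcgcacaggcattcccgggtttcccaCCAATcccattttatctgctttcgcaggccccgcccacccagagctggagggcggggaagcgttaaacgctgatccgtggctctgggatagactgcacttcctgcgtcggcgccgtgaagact
Psmb4: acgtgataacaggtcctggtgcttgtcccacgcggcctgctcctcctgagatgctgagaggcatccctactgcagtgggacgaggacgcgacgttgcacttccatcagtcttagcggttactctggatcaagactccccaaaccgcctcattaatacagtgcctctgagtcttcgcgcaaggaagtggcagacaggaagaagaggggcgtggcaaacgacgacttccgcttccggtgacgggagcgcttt
Psmd4: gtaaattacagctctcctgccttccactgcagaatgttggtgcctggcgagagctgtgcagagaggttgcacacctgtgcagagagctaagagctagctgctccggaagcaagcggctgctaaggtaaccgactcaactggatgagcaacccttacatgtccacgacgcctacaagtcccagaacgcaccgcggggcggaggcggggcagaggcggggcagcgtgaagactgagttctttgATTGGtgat
Psma1 holds 1 such box, whose first base lies at -123 from the start, Psmd4 holds 1 at -9, and the Psmb4 stretch holds none.

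In windows of 300 bases (250 before to 50 after the start), which were found for 37 of the 41 genes, CCAAT on either strand was present for 20, or 54.1%, against 37.7% of 27457 promoters in the same table. It was present for 9 of 12 core genes and 7 of 17 regulatory particle genes. The motif TGACNNNGC, the core of the antioxidant response element bound by Nfe2l1 and Nfe2l2 with small Maf proteins, was present on either strand for 7 of 37 genes, or 18.9%, against 12.2% of all promoters. The 7 genes were Psma3, Psmb2, Psmb5, Psmd1, Psmd3, Psmd9 and Psme4. The match in Psmb2 was TGACCGGGC and that in Psmb5 TGACGTCGC. None of the 5 genes at unadjusted p below 0.05 was among these 7, but 5 genes are too few to read anything from this. A match describes letters in this window and is not a measured binding site.

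The genes were spread over 17 chromosomes of assembly GRCr8, and 5 lay on chromosome 1 with Adamts16, namely Psma1, Psmb1, Psmc4, Psmd8 and Psmd13. The nearest to Adamts16, Psmb1, was 208 protein-coding genes away in gene order, and Psma1 was 1773 away. Whether any of the 5 lies in the donor segment was not tested. Psmb1 read 5736 ± 288 in S and 5849 ± 216 in congenic kidneys. Psmb4 and Psmd4 had the largest differences of the core and regulatory particle genes that the rule covers. They are close neighbours on chromosome 2, with 4 protein-coding genes between them, a fact looked up after their values were seen. Of those 4, Selenbp1 had a log2 difference of 0.22, Pi4kb 0.018, Rfx5 0.013 and Zfp687 -0.29, and none passed the adjusted threshold in limma.

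Around the proteasome, a list of 77 genes for ubiquitin, its transfer, shuttling and unfolding and for regulators of proteasome genes was read in the same fit. Of these, 65 were measured above the filter; 37 had positive and 28 negative differences with a median of 0.049. None passed at adjusted p 0.05, and 5 of 65 had unadjusted limma p below 0.05 (4 higher and 1 lower), beside 10.3% of all tested probe sets, a share not above the background. The strains did not overlap for 10 of the 65 that were higher and 5 that were lower in congenic rats, beside 7.98% and 7.99% of all tested probe sets. Vcp encodes the segregase that extracts ubiquitinated proteins for the proteasome. Nsfl1c, a Vcp cofactor, read 952 ± 59.2 in S rats and 1317 ± 49.5 in congenic rats, 0.47 apart on the log2 scale with a standard error of 0.10 (limma adjusted p = 0.146), and the strains did not overlap. Ubxn1, another cofactor, read 1957 ± 116 and 2340 ± 60.3 (0.26), and Vcp itself 5626 ± 291 and 6273 ± 206 (0.16), each congenic rat above each S rat. The unadjusted limma p of Vcp was 0.0567. Edem1, which directs misfolded glycoproteins to degradation, had 0.26. The ubiquitin-conjugating enzyme genes Ube2b and Ube2d2 had 0.28 and -0.24. For Ube2d2 each congenic rat was below each S rat, and for Ube2b the strains overlapped.

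By group, the Vcp and endoplasmic reticulum degradation genes had 10 of 17 positive with a median of 0.11, and 17 proteasome-associated genes had 10 positive with a median of 0.098. Among the latter were Adrm1 (-0.3) and Sem1 (-0.11), regulatory particle subunits whose symbols the rule did not cover. The strains overlapped for both. Ubiquitin-activating and conjugating enzymes had 12 of 19 positive with a median of 0.022. Regulators of proteasome genes had 5 of 12 positive with a median of -0.061. In that last group Nfe2l1 read 432 ± 58.8 in S and 494 ± 86.7 in congenic kidneys (log2 difference 0.19, limma adjusted p = 0.724), with overlap.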

How the data were processed

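Affymetrix arrays of 6 rat kidneys were used. The deposited values are linear probe set intensities made with GCOS 1.4, per the submitters' processing notes; settings: not given in the sources used here. Each array's mean after trimming 2% at either end was 500.2, so scaling preceded deposit, and intensity-dependent differences may remain. After 57 controls were left out, signals below the 10th percentile (12.27) were raised to it, log2 was taken, and probe sets with mean log2 above the median were tested with limma 3.58.1 (lmFit, eBayes with trend; R 4.3.3), as congenic minus S; adjustment was Benjamini-Hochberg over all of them, with a threshold of 0.05. Single values used the 2-sided exact permutation test. The number of arrays limits precision. Each limma p-value sets a difference against the spread between rats, which limma draws towards a trend over all tested probe sets. The pipeline was tested on simulated data. Values per rat are given for up to 6 genes of smallest p per class and for Psmb5, Psmb7, Psmd2, Psmd4 and Psmd14; of the wider list, the 6 of smallest p are named, with means or differences. The Psmb9 to Psmb6 ratio was planned but not formed. Members and lists were chosen with earlier results of these data known. Promoters came from RefSeq (GRCr8), matched by Entrez identifier. Figures: matplotlib 3.10.9.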

Additional observations from a re-analysis of the deposited data

How the results depend on the processing

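In 18 alternatives (12 settings and 6 fits with 1 array left out), no proteasome gene passed at adjusted p 0.05, and 17 of 21 genes given in detail kept their sign throughout. Over all tested probe sets, 9 passed with median centring and 0 to 41 with 1 array left out. Probe sets at p below 0.05 numbered 2462 without the filter and 989 under a stricter filter that kept signals above the 75th percentile. With centring, 62.6% of probe sets were positive and 9 members had p below 0.05 (1858 of all tested probe sets). The regulatory particle median was 0.17, beside 0.062 over all tested probe sets, Psmg4 had 0.00038 and Psmb5 0.028. With 1 array left out, 3 (without S replicate 2) to 9 (without S replicate 1) members had p below 0.05, beside 8.65% and 12.4% of all tested probe sets, and the core median was 0.01 to 0.11. Psme4 ran from -0.0057 to 0.23, Psmb5 from -0.082 to 0.0026 and Psmg3 from -0.0026 to 0.11. The ratio of Psmb8 to Psmb5 ran from -0.0011 to 0.18 and that of Psmb10 to Psmb7 from -0.054 to 0.16. When all probe sets of a gene were averaged, Psmb5 had 0.39 and the Psmb8 to Psmb5 ratio -0.32, because 2 of the 3 Psmb5 probe sets lie near the floor. The number that opens each array title, as a covariate, left the differences as they were, since its mean is the same in both strains. No paired analysis was possible because the labels give the strains no shared replicate numbers. Detection calls were not used here, so background was not set probe by probe. The cause of the other shifts was not tested.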
